A study of Mus musculus with 6 samples.

Results

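The 10 genes described here encode the transcription factors that direct granulocyte formation and the receptors through which the granulocyte growth factors act. They were chosen by name from the deposited table of 34709 genes, where each of the 10 names was found on 1 row. The set held 7 transcription factors (Spi1, Cebpa, Cebpe, Gfi1, Irf8, Cebpb and Cebpd) and 3 receptor chains (Csf3r, Csf2ra and Csf2rb). Articular cartilage of knockout (KO) mice was compared with that of wildtype (WT) mice by RNA sequencing of polyadenylated RNA, with 3 libraries labelled for each genotype. Per the study's text the animals were 18 months old and male, with littermates used for both genotypes, and the labels name no treatment. Which cells of the KO line lack the gene was not given in the sources used here. How many animals went into a library was not given in the sources used here, so p-values measure the spread between libraries, which may be technical in part.

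Granulocytes are made in the bone marrow from progenitors shared with monocytes. Spi1 (PU.1) opens the myeloid programme, Cebpa carries progenitors into it, Gfi1 favours the granulocyte branch while Irf8 favours monocytes and dendritic cells, and Cebpe drives the late stages in which the secondary granule proteins are made. Cebpb and Cebpd act in inflammation and in emergency granulocyte formation, and they are also used outside the blood. Csf3r is the receptor of G-CSF, Csf2ra is the chain that binds GM-CSF, and Csf2rb is the beta chain shared by the receptors of GM-CSF, IL-3 and IL-5.

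Promoter sequences are shown for the receptors, since transcription factors of the set are known to act on receptor genes. RefSeq windows of 300 bases (GRCm38.p6) were matched by symbol for 6 of the 10 genes, with 8 windows in all. Csf3r lies at chr4:126024409-126024708 on the plus strand and Csf2ra at chr19:61228369-61228668 on the minus strand. Both are written 5′ to 3′ in the direction of the gene, with capitals on the matches.
Csf3r: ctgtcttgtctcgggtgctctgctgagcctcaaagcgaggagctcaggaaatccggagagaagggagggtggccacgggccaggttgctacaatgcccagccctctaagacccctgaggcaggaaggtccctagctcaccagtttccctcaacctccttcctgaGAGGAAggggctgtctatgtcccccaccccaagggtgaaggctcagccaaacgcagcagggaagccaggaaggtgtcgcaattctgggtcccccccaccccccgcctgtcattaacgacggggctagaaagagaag
Csf2ra: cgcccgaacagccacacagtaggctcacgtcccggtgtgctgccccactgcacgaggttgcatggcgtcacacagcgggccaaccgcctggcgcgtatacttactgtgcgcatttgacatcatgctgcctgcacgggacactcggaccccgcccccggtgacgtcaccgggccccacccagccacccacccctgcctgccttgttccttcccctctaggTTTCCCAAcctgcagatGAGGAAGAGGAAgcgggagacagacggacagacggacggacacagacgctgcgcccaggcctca

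The capitals mark TTNNGNAA (a form of the C/EBP motif) and GAGGAA (the core of the Spi1 motif), searched on both strands together with AAATCAC (a form of the Gfi1 motif). Distances are to the RefSeq start, which for Csf3r and Csf2ra differs from the gene positions given below. In Csf3r a single GAGGAA began 86 bases before that start, but inside the gene by those positions. In Csf2ra the C/EBP form, on the opposite strand, began 31 bases before the start, and GAGGAA stood at 14 and 8 bases before it, side by side without overlap. By the gene positions given below, the GAGGAA at 8 bases lay inside Csf2ra, and that at 14 bases crossed the start of the gene. Of the other windows, 1 of Gfi1 held a C/EBP form 143 bases before the start and 1 of Irf8 a Gfi1 form 176 bases before it, both on the opposite strand, while those of Cebpa and Cebpb held no match. Across all 32851 promoter windows, 40.7% held the C/EBP form, 28.3% the Spi1 core and 3.20% the Gfi1 form. The matches describe letters alone.

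The libraries held 52268311 to 63331135 counts. KO replicates 2 and 3 stood apart from every other pair. Their squared count differences over genes of 200 to 50000 counts were 5.77 times those of Poisson sampling, against 23.7 to 85.4 times for the other 14 pairs, and they were therefore averaged and counted as 1 sample, which left 2 KO samples and 3 WT samples. The labelled tissue was checked against its markers. The chondrocyte genes Prg4 (402 to 1034 FPKM, fragments scaled to transcript length and library size) and Comp (41.0 to 109 FPKM) were present in each library, while Matn3 was listed at 0 in some. Prg4 and Comp were the highest of the list. Col2a1 (12.4 to 21.3 FPKM) and Acan (13.2 to 22.8 FPKM) were lower. Sox9 (0.865 to 2.81 FPKM), Cnmd (0.755 to 1.62 FPKM) and Col9a1 (0.0478 to 0.460 FPKM) were low. Genes of red cells and neutrophils were far more abundant, with the haemoglobin gene Hbb-bs at 9546 to 45387 FPKM and the neutrophil granule gene Ngp at 3803 to 7546 FPKM. In such a mixture, fewer cells of a type and less RNA per cell cannot be told apart.

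All 10 genes were well covered, with at least 357 counts in every library, and all passed the minimum mean of 0.5 FPKM. Levels per length were compared over the 5 samples. Csf3r was the most abundant, with a mean of 113.4 FPKM, followed by Cebpe at 63.8, Spi1 at 61.6, Csf2ra at 40.9, Cebpa at 22.4, Csf2rb at 20.3, Cebpd at 17.8, Irf8 at 17.3, Gfi1 at 12.9 and Cebpb at 9.91 FPKM. Most neighbours in this order had overlapping ranges, the exception being Csf2ra and Cebpa. The order held within 5 of 5 samples for Csf3r over Cebpe, Spi1 over Csf2ra, Csf2ra over Cebpa, and Irf8 over Gfi1. It held within 2 of 5 for Cebpe over Spi1, Csf2rb over Cebpd and Cebpd over Irf8, which did not differ beyond their spread. Cebpa varied least, by 1.12-fold from its lowest to its highest sample, and Cebpb varied most, by 7.46-fold.

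**Figure D1:**
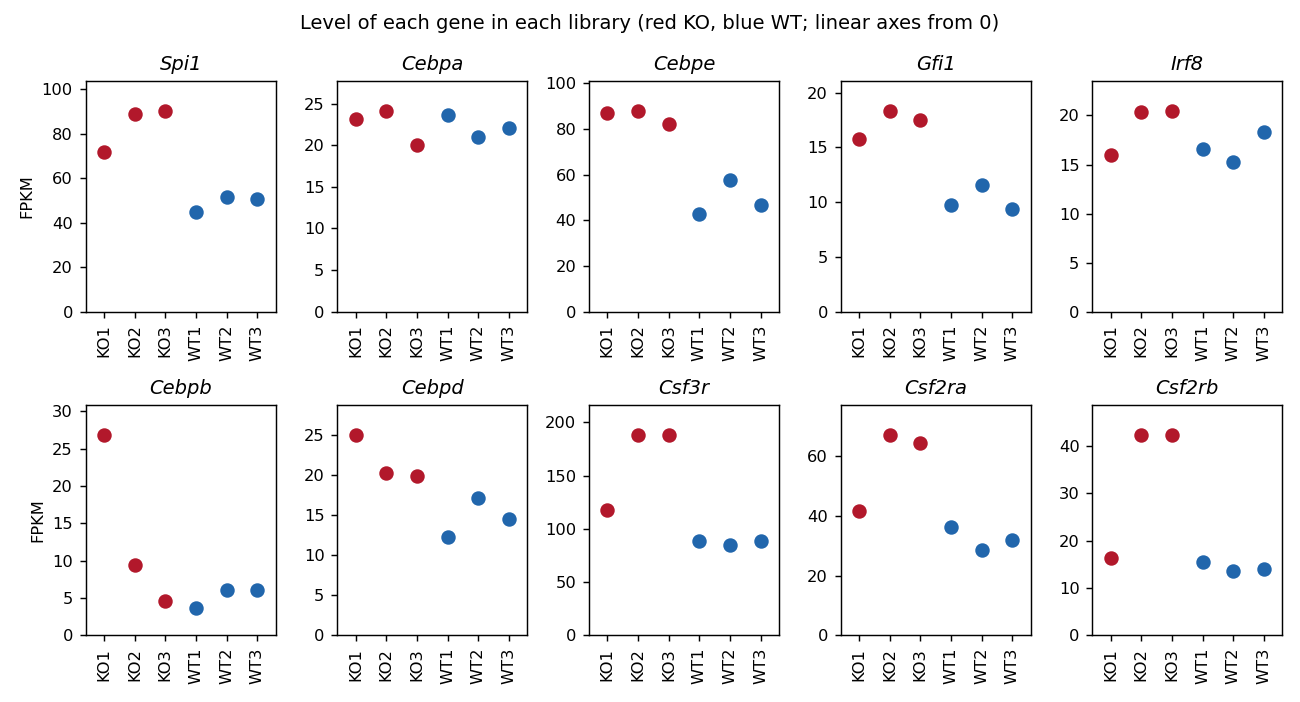
Level of each gene (FPKM, linear vertical axes from 0) in the 3 KO libraries (red) and the 3 WT libraries (blue). In 7 genes every KO library lay above every WT library, while Cebpa, Irf8 and Cebpb overlapped, and KO1 lay near the WT libraries for Csf2rb.

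The factors that open and complete granulocyte formation were examined first. Spi1 (chromosome 2, 91082390 to 91114366, GRCm38) had 71.8, 89.1 and 90.2 FPKM in KO replicates 1, 2 and 3, and 44.6, 51.5 and 50.7 FPKM in WT replicates 1, 2 and 3. Every KO library was above every WT library. With KO replicates 2 and 3 averaged, the KO mean of Spi1 was 80.7 ± 12.6 FPKM (SD, n = 2) and its WT mean 48.9 ± 3.75 FPKM (SD, n = 3). The log2 difference, KO minus WT, was 0.73 with an SE of 0.145, and edgeR gave an adjusted p-value of 0.166 (quasi-likelihood, Benjamini-Hochberg).

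Cebpe (chromosome 14, 54710360 to 54712174), the factor of late granulocyte maturation, had 86.9, 87.8 and 82.2 FPKM in the KO libraries and 42.8, 57.8 and 46.5 FPKM in the WT libraries. Its groups did not overlap, and the KO libraries were close to each other. The KO mean was 85.9 ± 1.3 FPKM and the WT mean 49.1 ± 7.82 FPKM. The log2 difference was 0.82 (SE 0.173, edgeR adjusted p-value 0.166).

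Gfi1 (chromosome 5, 107716657 to 107726036), a zinc-finger repressor, had 15.8, 18.3 and 17.5 FPKM in KO and 9.78, 11.6 and 9.42 FPKM in WT. The groups were again separate. Its log2 difference was 0.73 (SE 0.153, edgeR adjusted p-value 0.166). A transcript on the opposite strand, A430072P03Rik, overlaps it with 48 to 120 counts per library against at least 1909 for Gfi1. Whether the counting used the strand was not given in the sources used here.

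Cebpa and Irf8 gave a different picture. Cebpa (chromosome 7, 35119293 to 35121928) had 23.2, 24.1 and 20.1 FPKM in KO and 23.6, 21.0 and 22.1 FPKM in WT, and its groups overlapped throughout. Its log2 difference was 0.05 (SE 0.121, edgeR adjusted p-value 0.926), and it turned to -0.044 without KO replicate 1 and to -0.013 without KO replicate 2. Irf8 (chromosome 8, 120736358 to 120756694) had 16.0, 20.4 and 20.4 FPKM in KO and 16.6, 15.2 and 18.4 FPKM in WT. Its log2 value was 0.14 above WT (SE 0.136, edgeR adjusted p-value 0.755). Gm20388, annotated as protein-coding, overlaps Irf8 on the same strand, so counts could be split between them. KO replicate 1 was within the WT range for Cebpa and Irf8. Both factors are also used by other cells whose markers differed here. Adipocyte genes, for Cebpa, summed to 13.01 to 23.1 FPKM in KO and 36.9 to 73.1 FPKM in WT, and B cell genes, for Irf8 and Spi1, to 81.7 to 129.6 FPKM in KO and 261 to 290.1 FPKM in WT. The part of these cells in the values was not tested. Sums of FPKM, here and below, are weighted to the most abundant genes of a list. Examples are Prg4 for chondrocyte genes, Retnlg for mature neutrophil genes and Hbb-bs for erythroid genes.

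Of the inflammation-linked factors, Cebpb was the least even of the 10 genes among KO libraries, while Cebpd was not. Cebpb (chromosome 2, 167688915 to 167690418), a gene with a single exon, had 26.8, 9.39 and 4.62 FPKM in KO replicates 1, 2 and 3, against 3.60, 6.04 and 6.08 FPKM in WT. KO replicate 1 was far above the rest, while KO replicate 3 lay inside the WT range. The log2 difference was 1.74 (SE 0.541, edgeR adjusted p-value 0.237), the largest of the 10, but it rested on KO replicate 1, since it was 0.38 without that library and 2.43 with it as the only KO sample. Cebpb was also the gene of the set on which KO replicates 2 and 3 disagreed most, with 995 and 490 counts. Only 50 of 12635 genes with at least 200 counts in these libraries (0.396%) differed as much or more between them. Cebpa was next, with 4471 and 3723 counts in KO replicates 2 and 3, and 9.13% of these genes differed as much or more. Tmem189, which overlaps Cebpb on the opposite strand, had 3753 and 3858 counts there.

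Cebpd (chromosome 16, 15887286 to 15891031), which likewise has 1 exon, had 25.0, 20.2 and 19.8 FPKM in KO and 12.2, 17.2 and 14.4 FPKM in WT. All KO libraries were above all WT libraries. Its log2 difference was 0.64 (SE 0.206, edgeR adjusted p-value 0.247), from 0.41 without KO replicate 1 to 0.81 without WT replicate 2. Spidr overlaps it on the opposite strand with 1668 to 2939 counts.

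The receptor genes were higher in all KO libraries, but by different amounts. Csf3r (chromosome 4, 126024550 to 126044440), whose promoter is given above, had 117, 188 and 188 FPKM in the KO libraries, against 88.2, 85.0 and 88.6 FPKM in WT. The WT mean was 87.3 ± 1.95 FPKM (SD, n = 3), and the KO mean was 152.7 ± 50.1 FPKM (SD, n = 2). The log2 difference was 0.81 (SE 0.196, edgeR adjusted p-value 0.175).

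Csf2ra (chromosome 19, 61223957 to 61228429) had 41.7, 67.2 and 64.6 FPKM in KO and 36.3, 28.6 and 31.9 FPKM in WT. KO replicate 1 was nearer to the highest WT library than to the other KO libraries. Its log2 difference was 0.75 (SE 0.181, edgeR adjusted p-value 0.175).

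Csf2rb (chromosome 15, 78325752 to 78351001) had 16.4, 42.4 and 42.3 FPKM in the KO libraries, against 15.4, 13.6 and 13.9 FPKM in WT. KO replicate 1 was thus just above the WT libraries, and the averaged pair well above them. The log2 difference was 1.04 (SE 0.318, edgeR adjusted p-value 0.232). Csf2rb has a close copy in the mouse, Csf2rb2, the IL-3 receptor beta chain. The longest coding transcripts of both (GENCODE M21) were 91.2% identical over 4674 aligned bases, with an identical run of 242 bases, longer than a read of 150 bases. Counts could therefore be split between them and both values are uncertain. Csf2rb2 was at 5.05, 12.4 and 12.5 FPKM in KO and 6.09, 4.56 and 4.70 FPKM in WT. Its log2 difference was 0.77 (edgeR adjusted p-value 0.352).

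**Figure D2:**
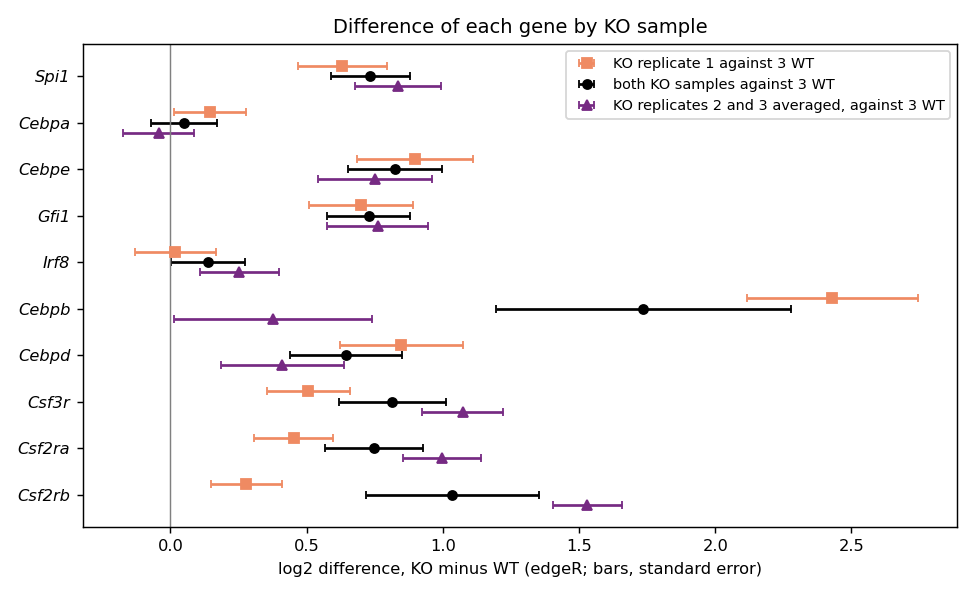
Log2 difference (KO minus WT, horizontal axis) of each gene by edgeR with its standard error, for KO replicate 1 alone (squares), for both KO samples (circles) and for the average of KO replicates 2 and 3 alone (triangles). The receptors were further from 0 in the averaged sample, Cebpb and Cebpd in KO replicate 1, and Cebpe, Gfi1 and Spi1 were at like values in both.

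Across the set, 0 of 10 genes passed an adjusted p-value of 0.05 by edgeR, as did 0.0% of the 15373 genes tested. All 10 log2 differences were above 0, as were 47.5% of all genes, with a median of 0.74 against -0.02 over all genes. At an unadjusted p-value under 0.05, 8 of 10 were higher in KO, where 7.63% of all genes were, and the exceptions were Cebpa and Irf8. In 7 of 10 every KO library was above every WT library, which held for 11.3% of all genes. The genes share cells and are not independent of each other, so these counts are descriptions. With the 6 libraries as labelled, 5 were called higher (Spi1, Gfi1, Cebpe, Csf3r and Csf2ra, edgeR adjusted p-values 0.0358 to 0.0422), beside 2.46% of all genes called higher and 3.71% called in either direction. DESeq2 on the 5 samples called the same 5 and Csf2rb, beside 3.66% of genes called higher and 6.07% in either direction.

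The difference of the set by KO sample was then described with a single KO sample set against WT, which is assumed to vary like the WT libraries. Csf2rb was 0.28 (SE 0.130) above WT in KO replicate 1 and 1.53 (SE 0.127) in the averaged sample, Csf3r 0.51 (SE 0.152) and 1.07 (SE 0.148), and Csf2ra 0.45 (SE 0.144) and 0.997 (SE 0.143), all on the log2 scale. Cebpe stood at 0.90 (SE 0.214) and 0.75 (SE 0.210), Gfi1 at 0.70 (SE 0.190) and 0.76 (SE 0.185), and Spi1 at 0.63 (SE 0.163) and 0.83 (SE 0.158). Values of the factors Cebpe, Gfi1 and Spi1 thus lay closer together between the KO samples than those of the receptors. KO replicate 1 also stood apart from KO replicates 2 and 3 in markers of other cells. Erythroid genes summed to 35663, 14723 and 14583 FPKM in KO replicates 1, 2 and 3. In the same order, chondrocyte genes summed to 1187, 505 and 510.4 FPKM and B cell genes to 129.6, 81.7 and 84.2 FPKM. Monocyte and macrophage genes summed to 537.5, 645.1 and 641.1 FPKM, and genes of that list went both ways. Ccr2 was at 29.2, 62.4 and 63.9 FPKM, but C1qa at 93.1, 58.4 and 58.2 FPKM. The part of these cells in the contrast was not tested. The difference between the KO samples was not tested, as both carry the same label. Without KO replicate 1 the 3 receptors passed the threshold, with edgeR adjusted p-values of 0.0358 for Csf3r, 0.0358 for Csf2ra and 0.0273 for Csf2rb, beside 1.7% of all genes called higher and 2.29% in either direction.

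To place the set beside the cells that use it, marker genes of the granulocyte stages were summed. Primary granule genes, made by promyelocytes, summed to 1662 to 2467 FPKM in KO and 940.2 to 1283 FPKM in WT, with Elane at 575 to 812 FPKM in KO and 338 to 441 FPKM in WT, and Mpo at 343 to 620.4 FPKM in KO and 239.7 to 258 FPKM in WT. Secondary granule genes summed to 14802 to 16398 FPKM in KO and 7636 to 11093 FPKM in WT. Among them Ngp was at 7464 to 7546 FPKM in KO and 3803 to 4997 FPKM in WT, but Camp overlapped, at 3807 to 6175 FPKM in KO and 2369 to 4365 FPKM in WT. Mature neutrophil genes summed to 2194 to 2411 FPKM in KO and 1508 to 1765 FPKM in WT. Retnlg was at 1840 to 1869 FPKM in KO and 1162 to 1491 FPKM in WT, and Mmp9 overlapped, at 201 to 343 FPKM in KO and 169 to 253 FPKM in WT. By edgeR 0 of these 16 markers passed the adjusted threshold, all 16 log2 differences were above 0, and 13 were higher at an unadjusted p-value under 0.05, beside 7.63% of all genes. Taking the 6 libraries as labelled, 6 passed, beside 2.46% of all genes called higher, and by DESeq2 11, beside 3.66%.

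Each gene was next set against the mean of the 6 secondary granule genes in the same library, on the log2 FPKM scale. Seen this way, the range of the KO libraries overlapped that of the WT libraries in 7 of 10 genes. For Cebpe and Csf2rb the ranges overlapped, but no KO value lay inside the WT range. The share of all genes that overlap on this scale was not computed, so the count describes these 10 genes alone. Csf3r lay from -3.39 to -2.92 in KO and from -3.27 to -2.85 in WT, and Cebpe from -4.12 to -3.82 in KO and from -3.93 to -3.83 in WT. Gfi1, which was higher in KO by FPKM, was slightly lower against these secondary granule genes, at -6.35 to -6.28 in KO and -6.23 to -6.02 in WT. The widest gaps were those of Cebpa, at -6.15 to -5.72 in KO and -5.29 to -4.75 in WT, and of Irf8, at -6.26 to -6.13 in KO and -5.76 to -5.26 in WT. Among the genes whose ranges overlapped, Cebpd in KO replicates 2 and 3 (-6.14 and -6.17) lay below its WT range of -5.70 to -5.58. Cebpe in the same libraries (-4.02 and -4.12) was also below WT, and in KO replicate 1 (-3.82) just above it. Spi1 in KO replicates 1 and 2 (-4.094 and -3.999) was below its lowest WT value of -3.997, and KO replicate 3 (-3.984) was inside. Csf3r and Csf2ra were below WT in KO replicate 1 alone, at -3.39 and -4.88. Csf2rb was below its WT range of -5.92 to -5.36 in KO replicate 1 (-6.23) and above it in KO replicates 2 and 3 (-5.07 and -5.08). Cebpb in KO replicate 1 (-5.51) lay above its WT range of -7.47 to -6.86, and in KO replicate 3 (-8.27) below it. Set against the primary granule genes instead, Gfi1 overlapped, at -4.59 to -4.24 in KO and -4.32 to -4.05 in WT. Cebpa, at -4.39 to -3.68 in KO and -3.47 to -2.78 in WT, and Irf8, at -4.39 to -4.22 in KO and -3.93 to -3.29 in WT, again did not overlap. Both reference lists were themselves higher in KO, with median log2 differences of 0.95 (secondary) and 0.88 (primary) by edgeR. A gene at like FPKM in both groups, such as Cebpa, therefore falls below WT on either scale. These are values without a test.

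**Figure D3:**
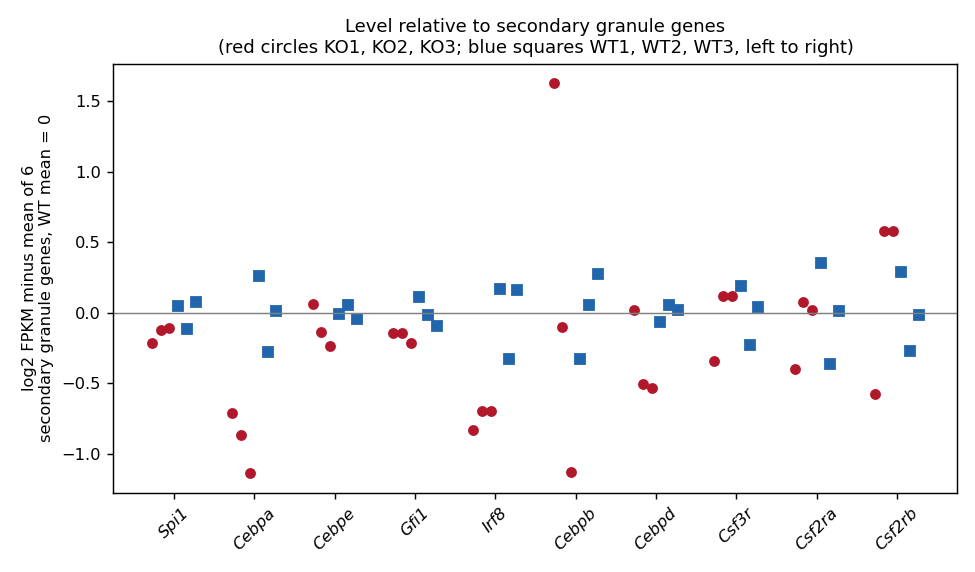
Level of each gene relative to 6 secondary granule genes in the same library (log2 FPKM difference, vertical axis, WT mean set to 0), with KO libraries as red circles and WT libraries as blue squares. Cebpa, Irf8 and Gfi1 lay below WT in all KO libraries, by the least for Gfi1. The KO and WT ranges of the other 7 genes overlapped. The secondary granule genes were themselves higher in KO as a list, so a gene at like FPKM in both groups lies below WT here.

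Ratios of factors with known opposing or successive roles were compared in the same way, and were chosen after values had been seen. The FPKM ratio of Spi1 to Cebpa was 3.09, 3.70 and 4.49 in the KO libraries and 1.89, 2.45 and 2.29 in the WT libraries. For Cebpe to Cebpa it was 3.74, 3.65 and 4.10 in KO and 1.82, 2.76 and 2.11 in WT. For Gfi1 to Irf8, the granulocyte and the monocyte factor, it was 0.988, 0.899 and 0.854 in KO and 0.590, 0.762 and 0.513 in WT. The groups were separate in all 3 ratios. The denominators, Cebpa and Irf8, had the smallest log2 differences of the set, and each numerator was already separate between the groups. The separation was thus largely set by this choice and adds nothing to the values of the single genes. The ratio of Csf2rb to Csf2ra was 0.393, 0.631 and 0.654 in KO. It was 0.425, 0.473 and 0.436 in WT, and did not separate the groups. With 2 samples against 3 the smallest two-sided p of an exact permutation test is 0.1, so none was made.

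The other genes of the growth factor pathway were then examined, from a list of 44 genes of which 42 were in the table and 39 were tested. By edgeR 0 passed the adjusted threshold, and at an unadjusted p-value under 0.05, 7 were higher and 5 lower in KO, where 7.63% and 6.07% of all genes were. Their median log2 difference was 0.06, against 0.74 for the members. Among ligands, Csf1 and Il34, which both act on Csf1r, were lower in every KO library than in every WT library, as were 13.7% of all genes. Csf1 was at 6.74 to 7.63 FPKM in KO and 8.43 to 14.4 FPKM in WT, with a log2 difference of -0.50 (edgeR adjusted p-value 0.438). Il34 was at 3.55 to 5.30 FPKM in KO and 7.11 to 7.42 FPKM in WT, with a log2 difference of -0.67 (edgeR adjusted p-value 0.266). Csf2 and Il5 were at or near 0, with at most 0.068 FPKM, and the genes of G-CSF and IL-3 were not analysed here.

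Downstream of the receptors, 9 kinases and STAT factors were tested and 8 had log2 differences above 0. Log2 differences were 0.46 for Stat3, which carries the G-CSF signal, and 0.35 for Lyn, with unadjusted p-values of 0.0439 and 0.0495 by edgeR. Of the feedback inhibitors, Socs3, which dampens G-CSF signalling, had 0.47 and the phosphatase gene Ptpn6 0.48, while Trib2, whose product promotes the breakdown of C/EBPα, had -0.71 (adjusted p-values 0.311, 0.273 and 0.222 by edgeR). Kit and Flt3, receptors of early progenitors, had log2 differences of 0.26 and 0.48 (adjusted p-values 0.474 and 0.531 by edgeR).

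Of the other genes listed with the C/EBP factors, Cebpg and Cebpz had log2 differences of -0.10 and -0.04 and Ddit3, a stress-induced member of the C/EBP family, had -0.21 (edgeR adjusted p-values 0.843, 0.943 and 0.623). Ddit3 was at 12.6, 12.6 and 11.1 FPKM in KO and 14.2, 13.6 and 15.2 FPKM in WT, so that every KO library was below every WT library, as for 13.7% of all genes. The monocyte factor Klf4 had 0.41 (edgeR adjusted p-value 0.265). Irf4, used by B and plasma cells, was at 3.12 to 4.08 FPKM in KO and 4.97 to 6.42 FPKM in WT, with -0.64 (edgeR adjusted p-value 0.187). The erythroid factor Gata1 was at 21.4 to 25.4 FPKM in KO and 32.3 to 41.3 FPKM in WT, with -0.59 (edgeR adjusted p-value 0.202). The corepressor genes of Gfi1 had log2 differences of 0.06 for Hdac1, -0.13 for Hdac2 and 0.10 for Rcor1, with adjusted p-values of at least 0.725 by edgeR.

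**Figure D4:**
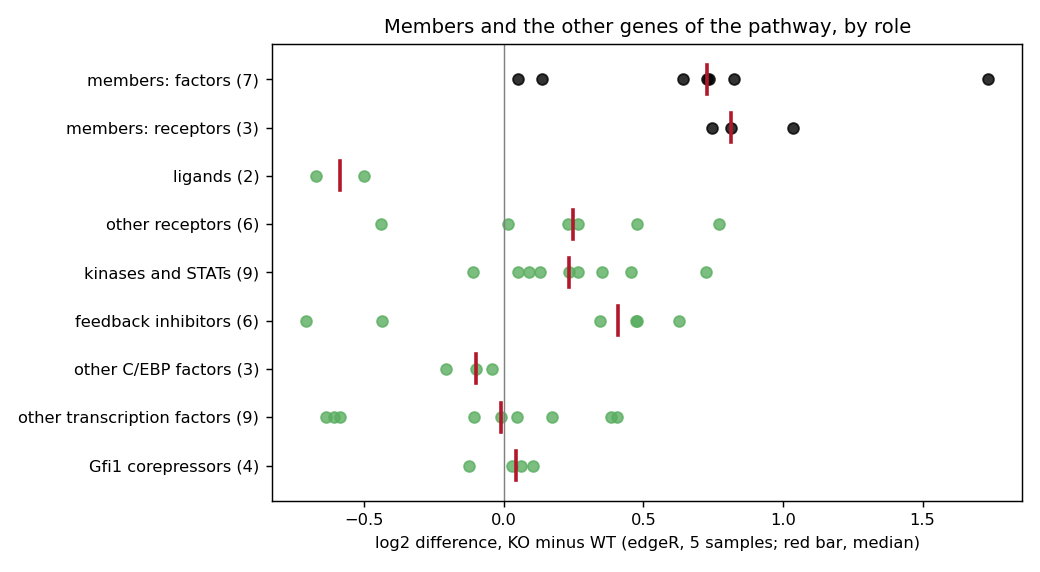
Log2 differences (KO minus WT by edgeR on 5 samples, horizontal axis) of the members (black) and of the other tested genes of the pathway (green) by role, with the median of each role as a red bar and the number of genes in brackets. The medians are 0.73 for the member factors and 0.81 for the member receptors, and range from -0.59 (ligands) to 0.41 (feedback inhibitors) for the other roles.

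Marker genes of other cell types also differed in range between the groups. Monocyte and macrophage genes, in cells that also use Spi1, Irf8 and the GM-CSF receptor, summed to 537.5 to 645.1 FPKM in KO and 418 to 457 FPKM in WT. Within that list Ly6c2 was at 218 to 248 FPKM in KO and 125 to 144 FPKM in WT, while C1qa was at 58.2 to 93.1 FPKM in KO and 85.1 to 115 FPKM in WT. Of its 7 genes, 5 had log2 differences above 0 by edgeR and 2 below, with a median of 0.69. At an unadjusted p-value under 0.05 by edgeR, 4 were higher and 0 lower, beside 7.63% and 6.07% of all genes. With the 6 libraries as labelled 3 were called higher, beside 2.46% of all genes, and by DESeq2 3, beside 3.66%. Erythroid genes summed to 14583 to 35663 FPKM in KO and 41209.6 to 64945 FPKM in WT, with Hba-a1 at 4490 to 9700 FPKM in KO and 12575 to 18190 FPKM in WT. Among the B cell genes, Cd79a was at 26.1 to 45.6 FPKM in KO and 87.6 to 98.3 FPKM in WT, and Cd79b at 27.6 to 45.5 FPKM in KO and 83.3 to 85.9 FPKM in WT. Chondrocyte genes overlapped, at 505 to 1187 FPKM in KO and 515 to 684 FPKM in WT. Adipoq was at 10.2 to 18.9 FPKM in KO and 32.1 to 55.8 FPKM in WT, and Pparg at 2.68 to 3.65 FPKM in KO and 4.02 to 6.46 FPKM in WT. Of the lists of monocyte, B cell, erythroid, chondrocyte and adipocyte genes, 0 of 30 tested members passed the adjusted threshold by edgeR, with 4 higher and 14 lower at an unadjusted p-value under 0.05, beside 7.63% and 6.07% of all genes. Of the 7 B cell genes, 6 were called lower for the 6 libraries as labelled, beside 1.25% of all genes, and all 7 by DESeq2, beside 2.41%. Their part in the levels of the granulocyte regulators was not tested.

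Genes with the most similar pattern were sought for 1 gene of each kind, by Pearson's r of log2 counts scaled to library size (CPM) over the 5 samples. For Csf3r these were Sema4a, Hdc and Fbxw11 (r from 0.9996 to 0.9998), for Cebpe Ptov1, Stk16 and Orai1 (0.9987 to 0.9998), and for Irf8 Ckap2l, Scyl3 and Actn4 (0.996 to 0.998). These were the highest of 15373 genes over as few as 5 samples, and they describe these samples alone.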

How the data were processed

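Per the labels, mRNA of mouse articular cartilage was captured with oligo(dT) beads and made into strand-specific libraries with molecular identifiers. The submitters' processing notes name HISAT2 2.0.4, UMI-tools and StringTie 1.3.4d. The authors deposited FPKM values, scaled within each library, and estimated counts, which were whole numbers but piled up at 4 (6596 values, against 4170 at 3), so a count was not taken as 1 fragment. Gene positions follow GRCm38, and the use of strand is not given in the sources used here. The target of the knockout and a gene of the pathway list are not reported here. Columns of 0 further samples were left unused.

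The counts were tested with edgeR 4.0.16 (quasi-likelihood test, TMM scaling, R 4.3.3) on genes averaging 0.5 FPKM or more, with Benjamini-Hochberg adjustment over 15373 genes and a threshold of 0.05. KO replicates 2 and 3 were averaged (counts rounded). Each SE is the absolute log2 difference over the root of F. With a floor of 3 counts, a listed 0 allows 0.0574 CPM in the library of lowest depth, which covers counting error only. The script was tested on simulated data. The alternatives were the 6 libraries as labelled, DESeq2 1.42.0, limma 3.58.1, other scaling and filters, a replicate block and each library left out.

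The members, the lists and the averaging of KO replicates were chosen with earlier results of these data known. All 10 members are named, and of the pathway list up to 3 genes per role with the smallest p-values and the expressed ligands, of each marker list the 2 with the highest mean FPKM, and 3 genes of most similar pattern for Cebpe, Csf3r and Irf8. Other genes were named after their values were seen. Protein sequences were not used here.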

Additional observations from a re-analysis of the deposited data

How the results depend on the processing

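The number of members with an adjusted p-value under 0.05 was 0 by edgeR on the 5 samples, 5 with the 6 libraries as labelled and 6 by DESeq2, and ranged from 0 to 3 with each library left out. It reached 3 without KO replicate 1, where Csf3r, Csf2ra and Csf2rb passed with 1 KO sample left. Of the pathway genes, 0 passed, but 1 did with the 6 libraries as labelled and 4 did by DESeq2 (1 higher, and Irf4, Gata1 and Trib2 lower), with a range of 0 to 1 with each library left out (Csf2rb2 without KO replicate 1). Over all genes the number was 0 by edgeR, 570 as labelled, 879 by DESeq2, 21 without a filter and 352 without KO replicate 1. The cause of these differences was not tested.

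The median log2 difference of the members was 0.74, from 0.69 to 0.81 with each library left out, and 0.57 with KO replicate 1 as the only KO sample. Cebpa changed sign without KO replicate 1 (-0.044) and without KO replicate 2 (-0.013), over a range of -0.044 to 0.11. The other 9 members kept their direction in all 15 alternatives, with adjusted p-values from 0.000842 (Spi1 by DESeq2) to 0.978 (Irf8). Cebpb ranged from 0.38 to 1.88 with each library left out.

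With the replicate block on the 6 libraries as labelled, 0 members and 0 genes passed, and the lowest adjusted p-value of a member was 0.0857 (Spi1). The calls made without it were thus lost, but same-numbered libraries did not deviate together (correlations across genes of -0.14, -0.11 and -0.06), and the labels do not say that they share an animal or a day. Counts behind the members were at least 357 per library, and the part of depth in the calls was not tested.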
